A study of Mus musculus with 35 samples.

Results

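The values of 10 genes of the Notch pathway were followed across embryonic tissues: the receptors Notch1, Notch2 and Notch3, the ligands Dll1, Dll3, Jag1 and Jag2, the glycosyltransferase Lfng, and the transcriptional repressors Hes1 and Hes5. These 10 genes were chosen by name from 30723 gene symbols in the deposited tables, with earlier results of these data known. All 10 were among the 13934 genes tested. RNA came from CD1 wild-type mouse embryos at embryonic day 11.5, and no group carried a mutant allele or a treatment. The 35 libraries held the frontonasal prominence (FNP), mandibular prominence (MNP), limb, brain taken dorsally (dB) and brain taken ventrally (vB) with 6 libraries each, and the maxillary prominence (MXP) with 5. For dB and vB the sample labels speak of neural tube where the study's methods speak of brain. Each library pooled tissue of several embryos. In the contrasts, neural stands for dB and vB (n = 12), facial for FNP, MNP and MXP (n = 17), and limb for the limb libraries (n = 6).

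Notch signalling passes between touching cells. A ligand of the Delta or Jagged family on one cell binds a Notch receptor on its neighbour, the receptor is cut by ADAM and gamma-secretase proteases, and its freed intracellular part joins the DNA-binding protein Rbpj to switch on targets such as the Hes and Hey repressors. Fringe enzymes add sugars to the receptor and change which ligands it answers to. In the embryonic brain the pathway is known for keeping neural progenitors undifferentiated while Delta-bearing neighbours become neurons, and in the face and limb it is known for roles in mesenchyme, epithelium and vessels.

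Levels were deposited as FPKM (fragments scaled to transcript length and to the mapped fragments of the library), summed here over the transcripts of each gene, so levels of different genes are compared per length. A gene was called between tissues when limma, fitted on log2(FPKM + 1) over all 13934 tested genes, gave both a fold of 2 or more and a p under 0.05 after Benjamini-Hochberg adjustment. Fold changes are on that log2(FPKM + 1) scale, which understates changes of genes near 0. Because the tissues are bulk samples, fewer cells that express a gene and less RNA per cell cannot be told apart.

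The libraries had 11742 to 12955 genes at 1 FPKM or more, and the per-base coverage that went with 1 FPKM ran from 2.71 to 5.52. Sox1, a neural progenitor gene, was at 9.47 to 60.8 FPKM in the 12 brain libraries. Outside the brain it was at 12.9 FPKM in FNP replicate 4, 11.02 in FNP replicate 5, 2.47 in MXP replicate 5 and 0.967 in limb replicate 1, and at most 0.488 in the other 19. The 10 mesenchyme markers were called lower in neural than facial libraries for 8 genes, and all 10 surface epithelium markers were called lower. Of all tested genes, 4.64% were called lower in neural than facial libraries. In vB the summed mesenchyme markers ranged from 7.70 to 353 FPKM. In vB replicate 4, all 10 Notch genes had their lowest value of the 6 vB libraries, and in limb replicate 4 all 10 had their lowest limb value. Each of these libraries also had the fewest genes at 1 FPKM or more in its tissue, at 11894 and 11742. The share of all tested genes at their tissue's lowest value there was not counted. Values without such libraries are given for some of the results that they touch.

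Of the 10 genes, 6 differed between neural and facial tissue. Notch1, Dll1, Dll3, Hes5 and Lfng were higher in the brain, and Jag2 was lower. The same call was made for 11.3% of all tested genes in this contrast, made up of 6.64% with higher levels in neural and 4.64% with higher levels in facial libraries. Against limb, 5 of the 10 genes were called, all higher in neural tissue (Notch1, Dll1, Dll3, Hes5 and Lfng), where 12.4% of all tested genes were called and 8.05% were higher in neural tissue. None of the 10 was called between facial tissue and limb, where 2.62% of tested genes were called and 3 of the 10 had an unadjusted p under 0.05 in limma. The share of all tested genes under that unadjusted p was not counted. The median log2 fold change of the 10 genes was 0.88 for neural against facial, beside -0.02 for all tested genes, and 0.81 for neural against limb, beside -0.01.

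**Figure D1:**
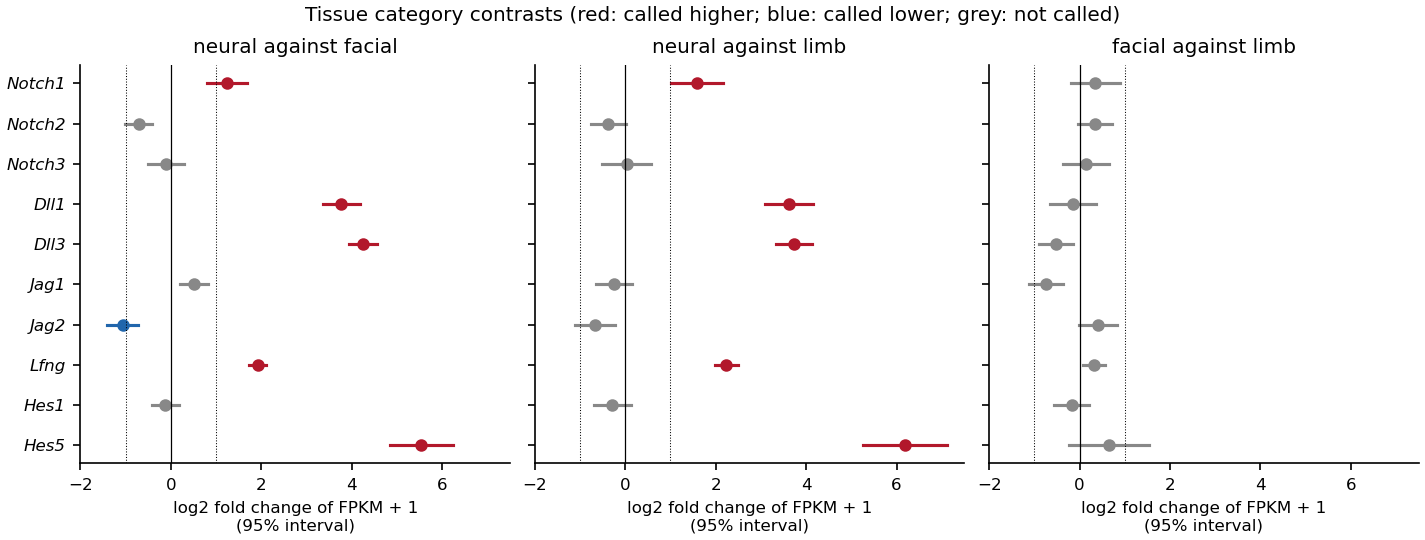
Log2 fold change of FPKM + 1 (x axis) for each of the 10 Notch genes (y axis) in 3 category contrasts. Points are limma estimates, bars are 95% intervals, dotted lines mark a fold of 2, and red and blue mark genes called higher and lower. Hes5 stands farthest to the right in both neural contrasts, at 5.54 and 6.20, while every point of facial against limb lies inside the dotted lines.

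**Figure D2:**
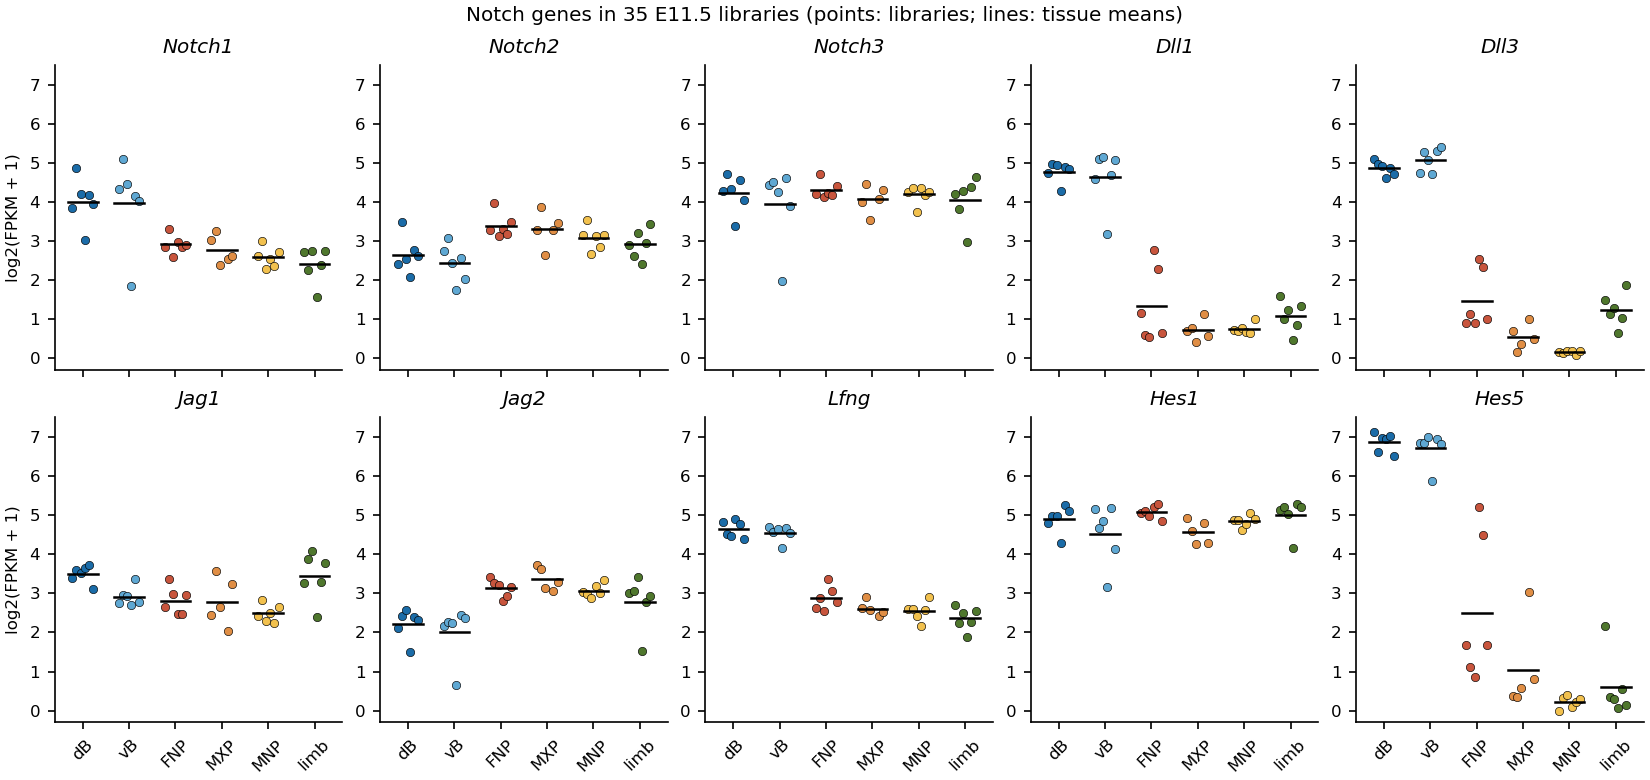
Level of each Notch gene as log2(FPKM + 1) (y axis) in every library, by tissue (x axis). Points are libraries and horizontal lines are tissue means. Dll1, Dll3, Lfng and Hes5 form separate brain and non-brain groups, Notch3 and Hes1 sit at similar heights in all 6 tissues, and the low vB point in most panels is replicate 4.

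The RefSeq promoters of 4 of these genes and relatives are shown because Hes5, Lfng and Dll3 were higher together in the brain. Hey2, a related target, was called lower there than in the mean of the facial tissues. Each is 250 bases before and 50 bases after the annotated start on GRCm38.p6, printed 5′ to 3′ on the gene's strand. Capitals mark GTGGGAA, a core sequence bound by Rbpj, on either strand, and in Lfng and Dll3 also CAGCTG, an E-box bound by basic helix-loop-helix proneural factors. The 2 motifs share no overlapping match in these promoters. Hes5 is at chr4:154960673-154960972 on the plus strand, Hey2 at chr10:30842734-30843033 on the minus strand, Lfng at chr5:140607091-140607390 on the plus strand and Dll3 at chr7:28301736-28302035 on the minus strand.
Hes5: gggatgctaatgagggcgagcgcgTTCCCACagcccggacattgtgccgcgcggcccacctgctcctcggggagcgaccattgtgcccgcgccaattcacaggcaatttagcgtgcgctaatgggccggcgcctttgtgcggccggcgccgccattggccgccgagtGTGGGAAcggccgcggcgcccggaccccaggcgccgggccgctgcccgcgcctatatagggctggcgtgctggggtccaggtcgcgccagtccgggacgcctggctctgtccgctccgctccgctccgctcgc
Hey2: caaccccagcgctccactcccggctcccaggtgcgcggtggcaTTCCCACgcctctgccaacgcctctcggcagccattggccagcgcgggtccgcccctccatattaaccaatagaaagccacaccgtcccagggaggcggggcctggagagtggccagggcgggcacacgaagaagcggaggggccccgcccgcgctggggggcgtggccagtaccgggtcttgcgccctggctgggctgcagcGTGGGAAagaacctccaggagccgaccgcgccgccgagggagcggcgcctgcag
Lfng: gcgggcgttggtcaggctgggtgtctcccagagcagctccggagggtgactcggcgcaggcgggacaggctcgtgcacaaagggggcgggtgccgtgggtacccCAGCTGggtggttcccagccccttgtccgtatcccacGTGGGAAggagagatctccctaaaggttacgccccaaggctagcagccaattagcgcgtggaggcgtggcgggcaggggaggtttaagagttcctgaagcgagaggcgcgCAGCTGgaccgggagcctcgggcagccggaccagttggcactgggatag
Dll3: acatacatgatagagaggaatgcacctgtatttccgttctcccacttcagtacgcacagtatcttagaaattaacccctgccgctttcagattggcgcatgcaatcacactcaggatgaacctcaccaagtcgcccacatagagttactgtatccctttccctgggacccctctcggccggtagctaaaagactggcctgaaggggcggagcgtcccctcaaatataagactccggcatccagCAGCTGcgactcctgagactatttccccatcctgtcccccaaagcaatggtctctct
Counted from the first printed base, Hes5 held GTGGGAA in reverse at bases 25 to 31 and forward at bases 168 to 174. Hey2 held it in reverse at bases 44 to 50 and forward at bases 247 to 253, and Lfng held 1 forward copy at bases 142 to 148. Of 32851 RefSeq promoters of this length, 6.38% held GTGGGAA at least once and 0.256% at least 2 times. RefSeq gave a promoter for 9 of the 10 Notch genes (not Hes1), and 2 of these 9 genes, Hes5 and Lfng, held the motif. CAGCTG was found in 16.3% of all promoters and in those of 4 of the 9 genes: Dll3, Jag1, Lfng and 1 of the 2 Dll1 promoters. Such matches describe these letters only and do not show binding.

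The receptors differed from one another in their pattern. Notch1 ranged from 2.61 to 33.4 FPKM in the 12 neural libraries (median 17.0), from 3.87 to 8.95 in the 17 facial libraries (median 5.56) and from 1.99 to 5.75 in the 6 limb libraries (median 4.93). In all, 10 of the 12 neural libraries lay above every facial and limb library, and the exceptions were vB replicate 4 at 2.61 FPKM and dB replicate 4 at 7.13 FPKM. The log2 fold change of Notch1 was 1.24 ± 0.21 (SE) for neural against facial (adjusted p = 8.01e-06) and 1.59 ± 0.28 for neural against limb (adjusted p = 1.79e-05). Among replicates 4 to 6 alone the Notch1 difference from facial tissue was 0.85 and missed the call (adjusted p = 0.061). Without vB replicate 4 it was 1.46.

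Notch2 had its lowest tissue means in the brain, at 4.67 ± 1.85 FPKM in vB (SD, n = 6) and 5.62 ± 2.47 in dB, and its highest in FNP, at 9.73 ± 2.55. Its neural libraries ranged from 2.38 to 10.3 FPKM (median 4.84) and its facial libraries from 5.22 to 14.6 (median 8.67), so the ranges overlapped. Neural against facial gave -0.72 ± 0.15 (adjusted p = 9.98e-05), past the p threshold and under the fold of 2. Notch2 was called in none of the 15 pairs of tissues.

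Notch3 was the receptor with the highest mean level over all 35 libraries, at 17.5 ± 4.85 FPKM (SD), against 9.53 for Notch1 and 7.23 for Notch2. Its tissue means ran from 16.3 FPKM in MXP to 19.0 in FNP, and its neural, facial and limb libraries overlapped. The log2 fold change for neural against facial was -0.11, with a 95% interval from -0.51 to 0.30 that lies within a fold of 2. The sign of this small value turned when vB replicate 4 was left out (0.09).

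These patterns changed the makeup of the receptor pool within a library. Notch1 made up 32.9% to 53.2% of summed Notch1, Notch2 and Notch3 FPKM in the 12 neural libraries and 13.7% to 22.9% in the 23 others, with no overlap. Notch2 made up 14.1% ± 5.46 (SD) of the pool in neural and 27.0% ± 2.41 in facial libraries. Within the brain, vB replicate 4 had the highest Notch2 share, at 30.0%, inside the facial range of 22.6% to 31.8%. Notch3 held 44.3% ± 5.35 of the pool in neural, 54.8% ± 3.71 in facial and 58.9% ± 4.18 in limb libraries. These shares are descriptions of summed FPKM and were not tested.

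**Figure D3:**
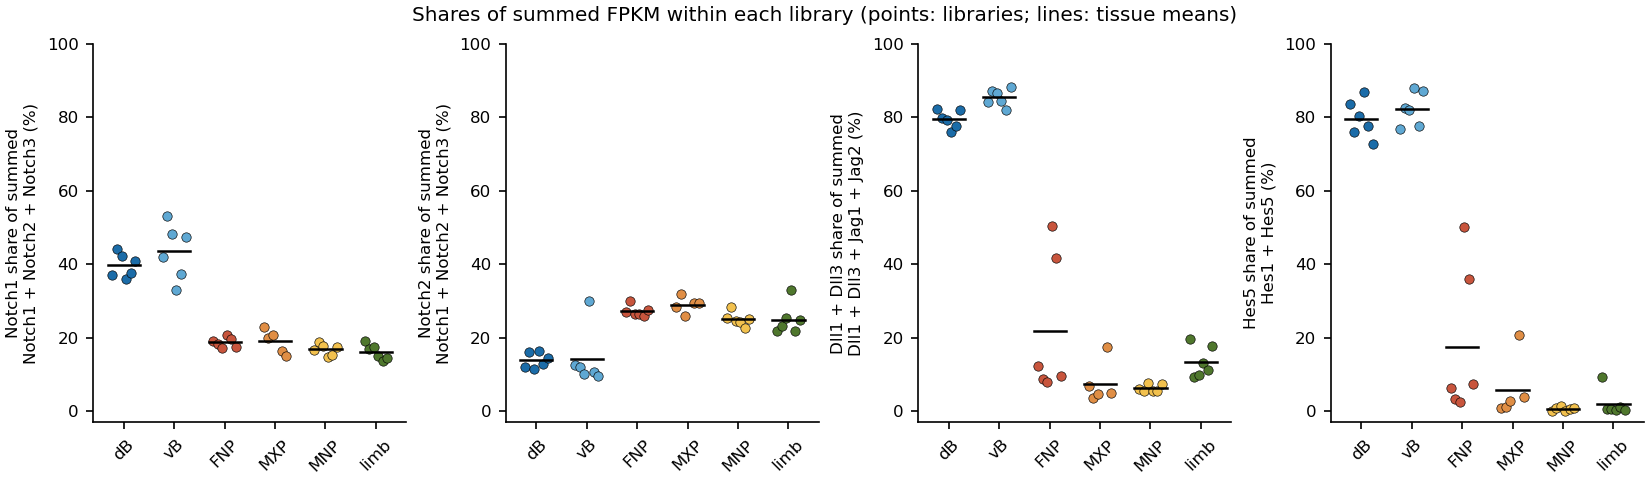
Share of summed FPKM (y axis, percent) held in each library by Notch1 or Notch2 among 3 receptors, by Dll1 plus Dll3 among 4 ligands, and by Hes5 among Hes1 and Hes5, by tissue (x axis). Points are libraries and lines are tissue means. Brain libraries hold the highest Notch1, Delta and Hes5 shares, and FNP replicates 4 and 5 reach 50.4% and 41.7% for Delta.

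Dll1 encodes the ligand that activates Notch on neighbouring cells and is a mark of cells starting to become neurons. In dB it was at 25.7, 30.3, 29.8, 18.4, 28.6 and 27.9 FPKM in replicates 1 to 6, and in vB at 23.3, 33.5, 34.7, 8.08, 24.6 and 32.6. Outside the brain the highest values were 5.80 FPKM in FNP replicate 4 and 3.85 in FNP replicate 5, and the median of the 23 libraries was 0.701. Every neural library lay above every other library, including vB replicate 4. The log2 fold change was 3.77 ± 0.20 against facial tissue (adjusted p = 4.21e-17) and 3.62 ± 0.27 against limb (adjusted p = 2.18e-13).

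Dll3, a divergent Delta protein that acts inside its own cell and is known to dampen Notch signalling, followed Dll1. It ranged from 23.6 to 33.2 FPKM in dB and from 25.3 to 41.5 in vB, against 0.0626 to 4.86 in the 23 libraries outside the brain. Dll3 was higher in neural tissue by 4.25 ± 0.15 on the log2 scale against facial tissue (adjusted p = 1.26e-21) and 3.73 ± 0.20 against limb (adjusted p = 5.06e-17). In vB replicate 4 Dll3 was at 25.3 FPKM, beside 25.6 in vB replicate 1, while Dll1 was at 8.08 FPKM there and at 23.3 or more in the other 5 vB libraries.

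Dll3 also differed outside the brain, where its levels were low. In MNP all 6 libraries were between 0.0626 and 0.149 FPKM, in limb they were between 0.563 and 2.65, and in FNP between 0.859 and 4.86, so MNP overlapped neither. Limb was above MNP by 1.08 ± 0.23 on the log2 scale (adjusted p = 0.0013), where 2.71% of tested genes were called, by 0.96 without limb replicate 6, under the fold of 2, and by 1.02 within replicates 4 to 6 (adjusted p = 0.34). FNP was above MNP by 1.31 ± 0.23 (adjusted p = 1e-04), where 2.68% of tested genes were called. In both fits that left out FNP replicates 4 and 5, the difference between FNP and MNP was 0.82, under the fold of 2. The adjusted p was 0.00053 where vB replicates 1, 4 and 5 were left out as well and 0.00088 where MXP replicate 5 and limb replicate 1 were. Within replicates 1 to 3 FNP was above MNP by 0.82 (adjusted p = 0.0044), under the fold of 2. The limma test against a fold of 1.5 lost both calls, with an adjusted p of 0.099 for FNP against MNP and 0.735 for MNP against limb.

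The Jagged ligands had other patterns. Jag2 was at 6.00 to 12.3 FPKM in the 17 facial libraries (median 7.99) and at 0.568 to 4.97 in the 12 neural libraries (median 3.87), with no overlap. Neural against facial gave -1.07 ± 0.16 (adjusted p = 1.26e-06). This was close to the fold of 2, and it fell to the other side of it without vB replicate 4 (-0.93), without dB replicate 4 (-0.997) and within replicates 1 to 3 (-0.96), while the adjusted p stayed under 0.05. In limb, Jag2 was at 7.10, 7.36, 9.73, 1.88, 5.89 and 6.64 FPKM in replicates 1 to 6, and neural against limb gave -0.67 ± 0.22 (adjusted p = 0.012), under the fold of 2. Leaving out any 1 library gave -0.92 to -0.53 for this contrast. The 10 surface epithelium markers summed to 3.11 to 48.5 FPKM in neural and 134 to 294 in facial libraries, and their part in the Jag2 difference was not tested.

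Jag1 had its highest tissue means in limb and dB, at 10.7 ± 4.26 and 10.4 ± 1.63 FPKM (SD, n = 6), and its lowest in MNP, at 4.67 ± 0.89. The dB libraries were all above the MNP libraries, from 7.67 to 12.2 against 3.70 to 6.06 FPKM, and the MNP against dB difference of -1.01 ± 0.23 (adjusted p = 5.02e-04) was the single pair in which Jag1 was called, where 11.3% of tested genes were called. That call sat at the fold threshold and was lost when any of 6 libraries was left out (MNP replicates 1, 3 and 5 and dB replicates 2, 4 and 5), with values from -1.08 to -0.96 over all 35 such fits, and also with sequencing run as a block (-0.94). Neural against facial gave 0.51 ± 0.15 for Jag1 (adjusted p = 0.0040), in the direction of the Delta ligands and under the fold of 2. Facial against limb gave -0.75 ± 0.19 (adjusted p = 0.0045), under the fold of 2, and -0.96 to -0.62 when any 1 library was left out. In all, 5 of the 6 dB libraries were above every vB library, and dB against vB gave 0.58 ± 0.23 with an adjusted p of 0.16. That p treats the libraries as independent. In replicates 1 to 6 Jag1 was at 9.46, 11.1, 10.4, 11.4, 12.2 and 7.67 FPKM in dB. The vB values in the same order were 5.81, 6.80, 6.61, 5.57, 9.29 and 5.86 FPKM, so dB was higher at each replicate number. No paired test was run.

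As a share of the 4 ligands' summed FPKM, Dll1 and Dll3 made up 76.0% to 88.1% in the neural libraries. Outside the brain the share ranged from 3.596% to 50.4%, with a median of 8.75%, and the highest values were those of FNP replicates 4 and 5. Leaving out Dll3, which does not activate receptors on other cells, Dll1 was 67.7% ± 6.77 (SD) of summed Dll1, Jag1 and Jag2 in neural and 7.84% ± 8.999 in facial libraries. Most of the ligand RNA was therefore Delta in the brain and Jagged in the face and limb, apart from FNP replicate 4 at 50.4%.

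Lfng encodes lunatic fringe, which extends the sugar on Notch and favours its response to Delta over Jagged ligands. It was at 17.0 to 29.1 FPKM in neural libraries (median 23.4), 3.503 to 9.35 in facial (median 5.09) and 2.67 to 5.52 in limb libraries (median 4.24). Neural libraries overlapped neither of the others. Lfng was higher in neural tissue by 1.92 ± 0.09 on the log2 scale against facial tissue (adjusted p = 2.64e-18) and 2.24 ± 0.12 against limb (adjusted p = 9.82e-17). Leaving out any 1 library kept the first between 1.89 and 1.96, the narrowest such range of the 6 called genes in that contrast.

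The 2 Hes genes behaved differently. Hes5 was at 90.3 to 138 FPKM in dB, at 111 to 127 in 5 vB libraries and at 57.3 in vB replicate 4. In MNP it was at 0 to 0.325 FPKM, and in limb at 3.49 in replicate 1 and at most 0.470 in the other 5. The log2 fold change was 5.54 ± 0.35 against facial tissue (adjusted p = 2.39e-15) and 6.20 ± 0.46 against limb (adjusted p = 2.6e-13), and no library outside the brain reached the lowest neural value. The ratio of mean FPKM was 25.9 for neural over facial and 146 for neural over limb.

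Hes5 was uneven among facial libraries. In FNP replicates 1 to 6 it was at 2.22, 1.17, 0.810, 36.0, 21.5 and 2.19 FPKM, and in MXP replicates 1, 2, 3, 5 and 6 at 0.308, 0.284, 0.503, 7.13 and 0.759. The 4 libraries outside the brain with the most Hes5 were FNP replicates 4 and 5, MXP replicate 5 and limb replicate 1, which are also the 4 with the most Sox1. Fabp7, a radial glia gene, was at 30.9 and 23.2 FPKM in FNP replicates 4 and 5, and at 1.00 to 4.98 in the other 4 FNP libraries. It was at 12.3 FPKM in MXP replicate 5, below the 16.3 of MXP replicate 1, where Sox1 was listed at 0. The 9 neural progenitor markers summed to 479 and 445 FPKM in FNP replicates 4 and 5, the highest FNP values, but to 274 in MXP replicate 5 and 271 in limb replicate 1, inside the ranges of the other MXP and limb libraries. The 8 proneural factors summed to 5.08 FPKM in MXP replicate 5 and 3.36 in limb replicate 1, each the highest of its tissue, and the neuron markers summed to 84.6 in MXP replicate 5, the lowest of MXP. Over the 23 libraries outside the brain, Pearson's r of Hes5 with Sox1 on the log2 scale was 0.96, a description over libraries that share tissue and depth. The part of such cells in these Hes5 values was not tested.

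Called on all libraries, Hes5 was higher in FNP than in MNP by 2.28 ± 0.53 (adjusted p = 0.0033) and higher in FNP than in limb by 1.91 ± 0.53 (adjusted p = 0.011), where 4.21% of tested genes were called. Both calls were lost within replicates 1 to 3, at 0.97 (adjusted p = 0.19) and 0.28 (adjusted p = 0.73), and without FNP replicates 4 and 5 and vB replicates 1, 4 and 5, at 1.11 (adjusted p = 0.058) and 0.74 (adjusted p = 0.17). They were also lost in the limma test against a fold of 1.5 (adjusted p = 0.096 and 0.25). Without FNP replicates 4 and 5, MXP replicate 5 and limb replicate 1, the differences were 1.11 and 1.05. This fit was added after the values were seen. The 4 libraries it leaves out had the most Sox1 and also the most Hes5 outside the brain. Its p-values therefore cannot say whether the calls hold. The neural against facial and neural against limb calls of Hes5 held in all of these fits.

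**Figure D4:**
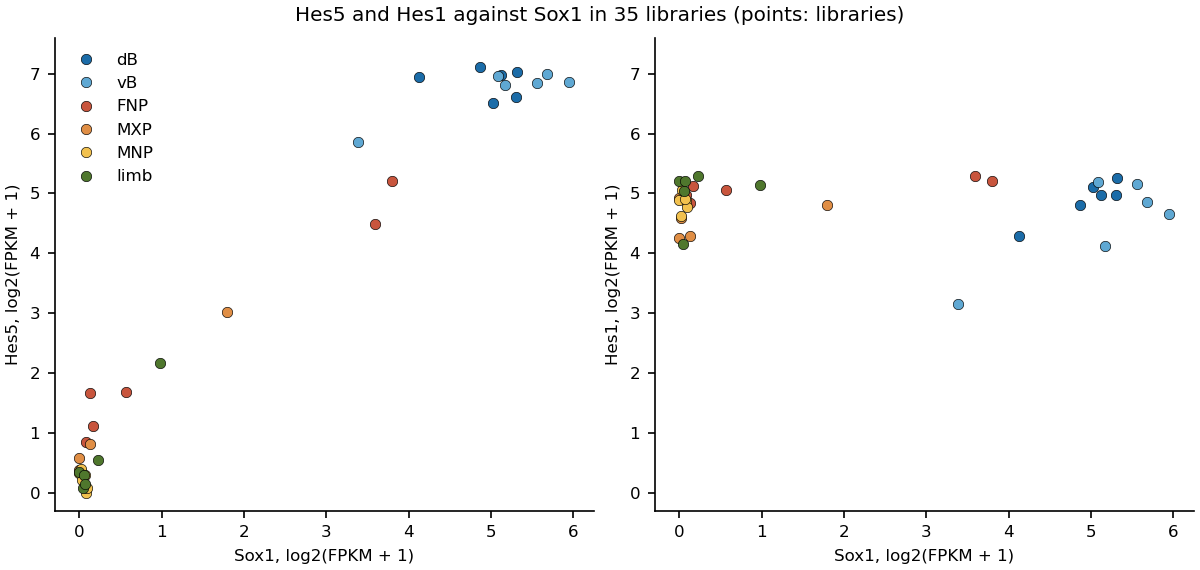
Hes5 (left) and Hes1 (right) against Sox1 in 35 libraries, all as log2(FPKM + 1). Points are libraries coloured by tissue. Hes5 runs up with Sox1 from limb and facial libraries through FNP replicates 4 and 5 to the brain, while Hes1 shows no such climb and is lowest in vB replicate 4, at 7.93 FPKM.

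Hes1 did not differ between tissue categories by the call. It was at 7.93 to 37.2 FPKM in neural libraries (median 29.3), 18.1 to 38.1 in facial (median 28.5) and 16.9 to 38.0 in limb libraries (median 35.1), and all 3 ranges overlapped. Neural against facial gave -0.12, with a 95% interval from -0.43 to 0.19, and neural against limb gave -0.29, with an interval from -0.70 to 0.12. Hes1 was called in none of the 15 pairs. Hes5 was accordingly 72.8% to 87.8% of summed Hes1 and Hes5 FPKM in neural libraries, 0% to 1.35% in MNP and 50.1% in FNP replicate 4, the highest value outside the brain.

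Between dB and vB none of the 10 genes was called, and 1.39% of tested genes were called. For 1 of the 10 (Jag1) the unadjusted p in limma was under 0.05, a count with no share over all genes beside it. The 95% intervals of the 10 log2 differences reached from -0.93 to 1.22 at their widest, for Hes5. That interval held a 2-fold higher level in dB but not a 2-fold lower one. The fit took 1 spread per gene from all 6 tissues, and Hes5 ran from 0.810 to 36.0 FPKM in FNP. Within the brain Hes5 was at 90.3 to 138 FPKM in dB and 57.3 to 127 in vB. For Lfng the interval ran from -0.19 to 0.38. Signs of several of these small differences turned when vB replicate 4 was left out.

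Across all 15 pairs of tissues, 7 of the 10 genes were called in at least 1 pair, against 21.3% of all tested genes. Notch1, Dll1 and Lfng were each called in 8 pairs, which are the 8 pairs of a brain tissue with a facial or limb tissue. Dll3 and Hes5 were called in 10, Jag2 in 4 and Jag1 in 1. The 4 Jag2 pairs were FNP, MNP and MXP against vB and MXP against dB, at 1.11, 1.05, 1.34 and 1.14, where 12.1%, 13.4%, 13.6% and 11% of all tested genes were called. MXP against vB was called whichever single library was left out, and without vB replicate 4 the differences of FNP and MNP from vB were 0.84 and 0.78. With sequencing run as a block FNP against vB was 0.96, under the fold of 2. The MXP against dB call was lost without dB replicate 4, at 0.999.

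Over the 35 libraries, the log2 levels of Dll1, Dll3, Lfng and Hes5 went together, with Pearson's r from 0.95 to 0.98 for the 6 pairs among them, which largely restates that all 4 separate brain from the rest. Within the 12 neural libraries, the same 6 pairs had r from 0.08 to 0.84. It was 0.84 for Hes5 with Lfng, 0.73 for Dll1 with Hes5, 0.53 for Dll1 with Dll3, 0.37 for Dll1 with Lfng, 0.36 for Dll3 with Hes5 and 0.08 for Dll3 with Lfng. Hes1 had r of -0.06 with Hes5 and 0.79 with Notch3 over the 35 libraries, and within the 12 neural libraries 0.68 and 0.92. These values are descriptions over libraries that share tissue, depth and replicate number, and vB replicate 4 was low for all of these genes.

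The tested genes outside the 10 whose log2 levels most resembled each gene over 35 libraries were found by Pearson's r. For Hes5 they were Sox1 (0.99), Zic1 (0.98) and Plk3 (0.98), and for Dll1 AI854517 (0.99), Sema5b (0.99) and Phf21b (0.99). For Dll3 they were Gpr56, Tdrkh and Ptprn2 (0.98 to 0.99), for Lfng Jam2, Fam181a and Paqr4 (0.97 to 0.98) and for Notch1 Mtap1a, Wnk2 and Pik3c2b (0.97 to 0.98). Notch2 was most like Numa1, Mkl2 and Ano6 (0.92 to 0.94), Notch3 like Mark2, Brpf1 and Khsrp (0.96), Jag2 like Fam83h, Yeats2 and Tead3 (0.92 to 0.94), and Hes1 like Irak1, Zfp687 and Glis2 (0.88 to 0.90). Jag1 had no close partner, its highest r being 0.77 with Parp12.

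In the other parts of the pathway, 47 of 51 listed genes were tested. For neural against facial tissue, 6 were called higher (Dner, Mfng, Numbl, Dtx4, Hes6 and Nrarp) and 1 lower (Hey2), with 40 not called, where 11.3% of all tested genes were called. For neural against limb 7 were called, all higher (the same 6 and Dtx1), beside 12.4% of all tested genes. For facial against limb 2 were called, both higher (Dlk1 and Hey2), beside 2.62%. Taken in either direction, these counts lie near the shares over all genes. In the direction of most calls the shares are lower. They are 6.64% for neural over facial tissue, 8.05% for neural over limb and 1.51% for facial over limb. No test was run on these counts. The calls for Numbl and Dtx1 lay near the fold of 2, and Numbl was at 0.31 and 0.50 when only the longest transcript was counted. Numbl fell under that fold against facial tissue without dB replicate 2 or without vB replicate 2, 3 or 6, at 0.98 to 0.99. Dtx1, at 1.02, did so without dB replicate 2, 3 or 6, vB replicate 2, 3 or 6, or limb replicate 1, 4 or 5, at 0.86 to 0.99, and also with sequencing run as a block (0.83) and with quantile normalization (0.81). Dlk1, a non-canonical ligand, was higher in the mean of the facial tissues than in limb by 1.23 ± 0.31 (adjusted p = 0.0056). It missed the call within replicates 1 to 3 (1.17, adjusted p = 0.076) and within replicates 4 to 6 (1.32, adjusted p = 0.14). Dlk1 was at 84.3 to 146 FPKM in MNP, 16.1 to 70.9 in FNP and 7.67 to 31.2 in MXP. Limb was at 11.2 to 24.9, so MNP lay above limb while FNP and MXP overlapped it.

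**Figure D5:**
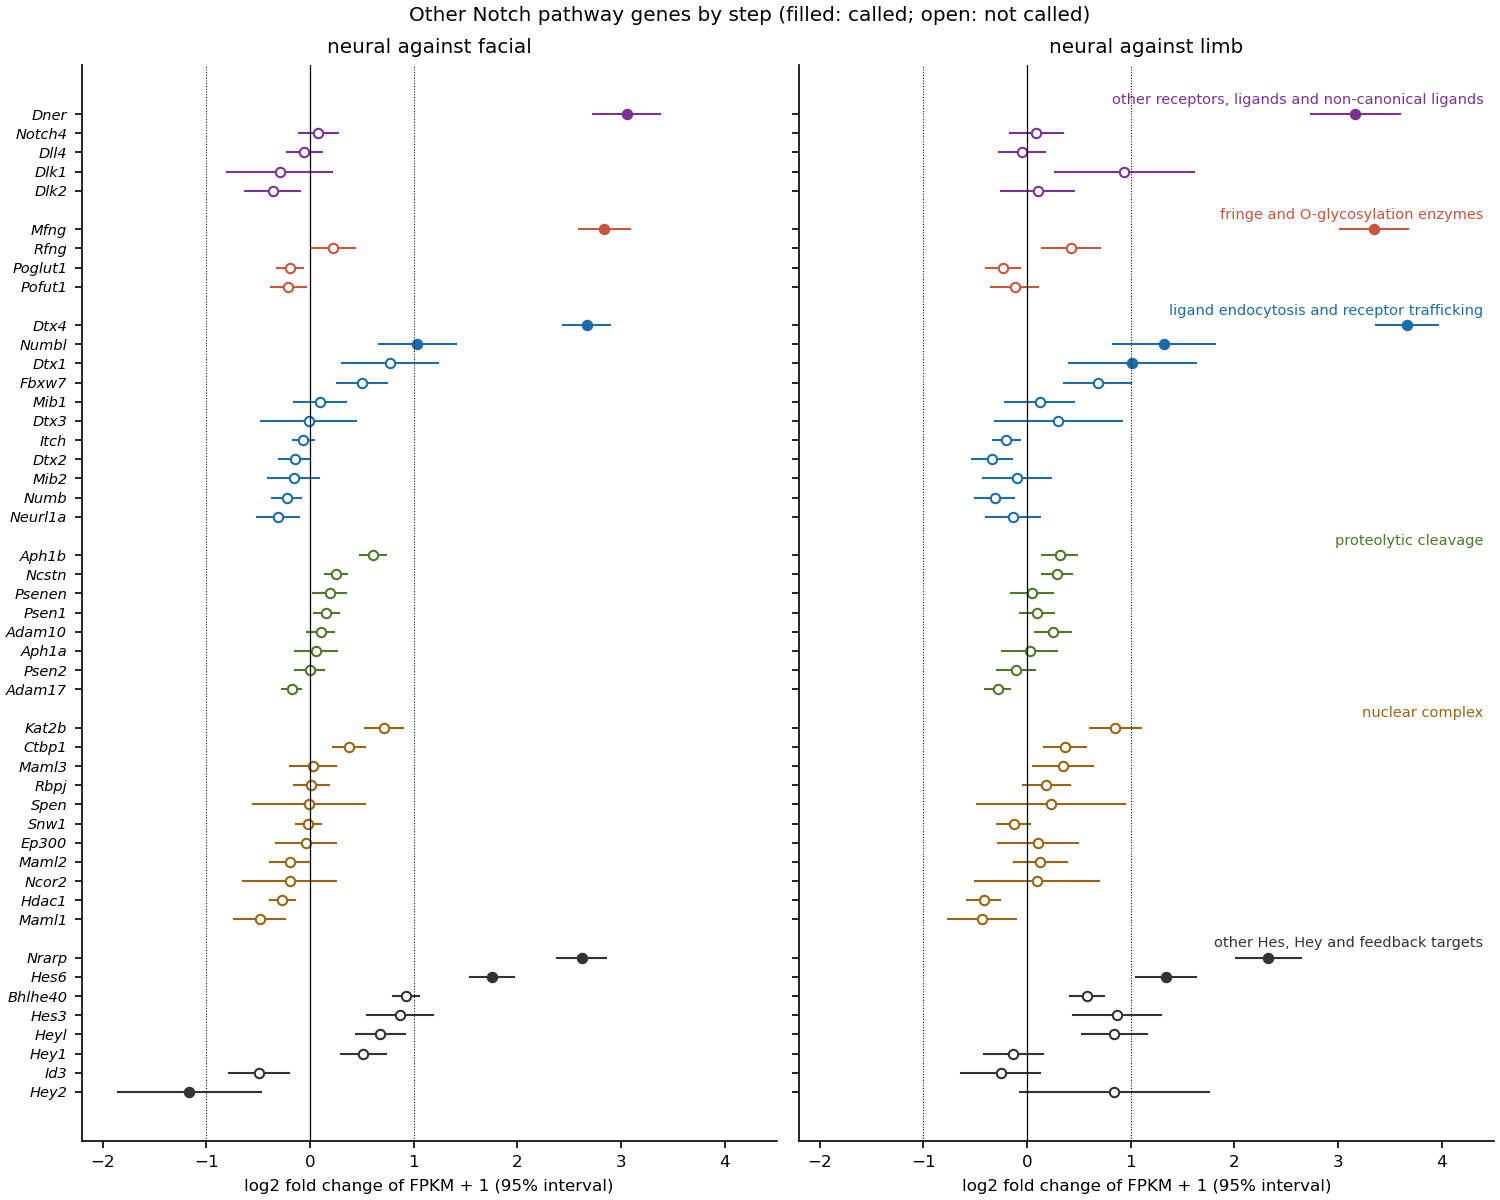
Log2 fold change of FPKM + 1 (x axis) of 47 other Notch pathway genes (y axis), grouped by step, for neural against facial and neural against limb. Points are limma estimates, bars are 95% intervals, filled points are called, and dotted lines mark a fold of 2. Genes of proteolytic cleavage and of the nuclear complex all lie between the dotted lines as open points, while Dner, Mfng, Dtx4, Nrarp and Hes6 are filled on the right of both panels.

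Among receptors and ligands outside the 10, Dner, a neuronal transmembrane protein with Delta-like repeats, was at 5.36 to 24.9 FPKM in neural and 0.0697 to 1.22 in facial libraries, a log2 fold change of 3.05 ± 0.16 (adjusted p = 2.23e-17). Notch4 and Dll4, known from blood vessels, were at similar low levels in all tissues, with means of 1.51 to 1.93 and 1.67 to 2.36 FPKM. Neither was called in the category contrasts, and none of the 11 endothelial markers was. These contrasts called 11.3%, 12.4% and 2.62% of all tested genes.

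Of the fringe and sugar-adding enzymes, Mfng (manic fringe) rose with Lfng. It was at 28.6 to 88.6 FPKM in neural, 12.7 to 19.1 in FNP and 2.48 to 5.65 in the other facial libraries, and its log2 fold change for neural against facial was 2.84 ± 0.12 (adjusted p = 1.73e-19). Rfng, Pofut1 and Poglut1 were not called, and the lowest Rfng tissue mean was 9.56 FPKM in limb against 13.4 in dB.

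Of 11 tested genes of ligand endocytosis and receptor trafficking, Dtx4, a Deltex protein that binds Notch, moved most. It was at 21.2 to 49.6 FPKM in neural and 2.62 to 8.74 in facial libraries, and at most 2.39 in limb, giving 2.67 ± 0.11 against facial tissue (adjusted p = 6.41e-20) and 3.66 ± 0.15 against limb (adjusted p = 2.65e-20). Mib1, the ubiquitin ligase that lets ligands pull on Notch, had tissue means from 14.97 to 18.2 FPKM and was not called.

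None of the 8 tested genes of proteolytic cleavage and none of the 11 of the nuclear complex was called for neural against facial, neural against limb or facial against limb. With 11.3%, 12.4% and 2.62% of all tested genes called, counts of 0 in lists this short are near the background. Unadjusted p in limma was under 0.05 for 5, 4 and 1 cleavage genes and for 4, 5 and 2 nuclear genes in these 3 contrasts. The matching share of all tested genes was not counted, so whether these counts are high cannot be told. The largest differences were 0.61 for Aph1b against facial tissue and 0.85 for Kat2b against limb. Rbpj, the DNA-binding protein of the pathway, was at 18.9 to 41.2 FPKM in neural and 21.9 to 35.4 in facial libraries, a difference of 0.01 with a 95% interval within a fold of 2. Adam10, the protease of the first cut, had tissue means from 25.7 to 32.1 FPKM.

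The last list holds other targets and also Hes relatives that need not be targets. Nrarp, a feedback inhibitor that destabilises the Notch intracellular part, was at 47.4 to 94.4 FPKM in neural and 7.49 to 24.3 in facial libraries, without overlap (2.62 ± 0.12, adjusted p = 4.99e-19). Hes6, a Hes relative found in differentiating cells, was at 48.7 to 138 FPKM in neural and 15.02 to 49.2 in facial libraries, an overlap made by vB replicate 4 (1.76 ± 0.11, adjusted p = 9.81e-16). Hey1 was not called, at 0.52 against facial tissue and -0.13 against limb.

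Hey2 was the 1 gene of the 47 called lower in neural than in facial tissue, by -1.17 ± 0.34 (adjusted p = 0.0040), and it was higher in facial tissue than in limb by 2.01 ± 0.43 (adjusted p = 9.11e-04). Its facial values were widely spread, from 0.799 to 58.8 FPKM, and reached across the neural range of 0.963 to 4.94. In replicates 1, 2, 3, 5 and 6 of MXP it was at 9.70, 58.8, 45.2, 7.004 and 53.1 FPKM, and in replicates 1 to 6 of MNP at 2.46, 24.4, 15.2, 1.22, 1.61 and 14.8. In FNP Hey2 was at 0.799 to 8.99 FPKM, reaching below and above the dB values of 3.62 to 4.94. Neither call held within replicates 4 to 6, at -0.52 (adjusted p = 0.42) and 1.52 (adjusted p = 0.30). Both were also lost in the limma test against a fold of 1.5 (adjusted p = 0.31 and 0.06). The promoters of Hey2 and Hes5, printed above, each held 2 copies of GTGGGAA. The 2 genes were called in opposite directions for neural against facial, where the Hey2 call rests on the mean of the 3 prominences.

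Marker lists moved with the same contrasts. For neural against facial tissue 7 of 9 neural progenitor markers, 6 of 8 tested neuron markers and 5 of 6 tested proneural factors were called higher, and none lower. Among all tested genes 6.64% were called higher in neural tissue. The summed neural progenitor markers were at 1242 to 2406 FPKM in neural and 187 to 479 in the other libraries, and the 8 proneural factors at 62.4 to 198 and 0.130 to 30.2. Of the defining genes, Sox1 was listed at 0 in 1 MNP, 2 MXP and 1 limb library. Their part in the Notch gene differences was not tested.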

How the data were processed

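RNA-seq was run on 35 libraries, and groups were taken from the sample labels. The authors deposited 1 Cufflinks table per library on mm10, with FPKM, coverage (a signal value used here only to describe depth) and a status for each transcript. No counts were given, so counting error cannot be stated. The submitters' processing notes name Bowtie2 and DESeq2 without versions, and no source used here gives the Cufflinks version or its aligner. Of 59120 transcripts, 65 with unreadable rows were left out and 59055 were used. FPKM was summed per symbol, and the 13934 genes whose mean reached 1 FPKM in any tissue were fitted as log2(FPKM + 1) in limma 3.58.1 (R 4.3.3; trend, robust; 1 mean per tissue; all 35 libraries), with 3 category and 15 pairwise contrasts. Calls needed an adjusted p under 0.05 and a fold of at least 2. Each library is a pool, and p-values measure the spread between these pools.

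The Notch genes and all lists were chosen with earlier results of these data known. Named genes were the 10 genes, other pathway genes called in a category contrast, the 3 genes most like each of the 10, and markers beside a result. Other pathway genes given beside these (Notch4, Dll4, Rfng, Mib1, Aph1b, Kat2b, Rbpj, Adam10 and Hey1) were chosen after their values were seen. Alternatives varied the pseudocount, filter, normalization, blocks, libraries, adjustment, fold test and transcripts. The fit without 4 libraries high in Sox1 was added after seeing the data. GC content was taken from the longest GENCODE M21 transcript, for 87.0% of tested genes. The limma script was tested on simulated data. Summaries used Python and pandas.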

Additional observations from a re-analysis of the deposited data

Results flagged for a closer look

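Of 60 groups of a gene and a tissue with 5 or 6 libraries, 11 held a library whose gap to its nearest neighbour, divided by the group's range, passed Dixon's 95% critical value, which chance alone does in about 1 in 20 groups. Replicate 4 of vB was low for Jag2 (0.568 FPKM, others 3.48 to 4.49), Hes5 (57.3, others 111 to 127) and Lfng (17.0, others 22.3 to 24.8), and limb replicate 4 was low for Hes1 (16.9, others 31.8 to 38.0). Hes5 stood high in MXP replicate 5 (7.13 FPKM, others 0.284 to 0.759) and in limb replicate 1 (3.49, others 0.0537 to 0.470). Notch2 stood high in FNP replicate 2 (14.6 FPKM, others 7.75 to 10.3) and in dB replicate 2 (10.3, others 3.24 to 5.83). Notch3 was low in MNP replicate 3 (12.5 FPKM, others 17.1 to 19.7), Dll1 was high in MNP replicate 6 (1.02, others 0.576 to 0.701), and Jag1 was high in vB replicate 5 (9.29, others 5.57 to 6.80).

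In vB replicate 4 the median log2 difference from the other vB libraries was -0.63 over the genes with the highest GC content and -0.01 over those with the lowest, each 25% of 12129 genes. The same values were -0.26 and 0.0029 in limb replicate 4 and -0.25 and 0.085 in dB replicate 4, each against the other libraries of its tissue. The Notch genes' own differences in vB replicate 4 ran from -2.56 for Notch1 to -0.24 for Jag1. The part of GC content in these values was not tested.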

How the results depend on the processing

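Leaving out any 1 library kept all 245 counts of called genes within 1.5 times, and 2231 of 2275 named fold changes kept their direction and side of the threshold. Under the other alternatives 80 of 84 counts and 711 of 780 fold changes did. The exceptions among counts were facial against limb: 1 Notch gene with a pseudocount of 0.1 (Dll3), and 1, 1 and 0 other pathway genes within replicates 1 to 3, within replicates 4 to 6 and with a test against a fold of 1.5. Over all genes, the pseudocount of 0.1 gave 2378, 2538 and 850 calls against 1571, 1729 and 365. The cause was not tested. Signs turned only for small differences that were not called. With quantile normalization Notch1 in dB against vB was -0.0299. With sequencing run as a block it was -0.15, Dll1 -0.0172 and Hes5 -0.0207, and Notch3 was -0.16 for neural against limb and -0.0849 for facial against limb. Within replicates 1 to 3, dB against vB was -0.33 for Notch1, -0.0713 for Dll1, 0 for Hes5 and -0.0335 for Lfng, neural against facial was 0.27 for Notch3 and 0.0978 for Hes1, and Hes5 was -0.30 for facial against limb. Within replicates 4 to 6, Notch3 was -0.25 and Jag1 0.0681 for neural against limb, and Dll1 was 0.29 for facial against limb. Without FNP replicates 4 and 5 and vB replicates 1, 4 and 5, dB against vB was -0.52 for Notch1, -0.33 for Dll1, -0.066 for Jag2 and -0.0236 for Hes5, and Notch3 was 0.0099 for neural against facial. Leaving out 1 library gave, for dB against vB, -0.40 to 0.25 for Notch1, -0.12 to 0.44 for Notch3, -0.15 to 0.25 for Dll1, -0.0759 to 0.34 for Jag2 and -0.0299 to 0.21 for Hes5. For neural against facial it gave -0.18 to 0.0876 for Notch3 and -0.19 to 0.0164 for Hes1, and Notch3 had -0.18 to 0.23 for neural against limb and -0.0752 to 0.26 for facial against limb. The depth in reads is unknown.

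In the fit that added a replicate block, 6, 5 and 0 Notch genes were called in the 3 category contrasts and 7 in at least 1 pair, as without it. Deviations of same-numbered libraries from their tissue means had a median r of 0.342 (0.008 to 0.698), against -0.074 for other numbers, and 32 of 35 libraries correlated best with their own number, so same-numbered libraries did deviate together. The numbers follow sequencing runs in part. Since 78 of 85 pairs, not all, were over 0.1 and no label says what a number marks, the fit reported has no block. Its standard errors and p-values treat the libraries as independent and so leave this shared deviation out of account.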

Other observations

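Hey2, a Notch target outside the 10 genes, varied among facial libraries by replicate number. It was at 1.79, 8.99, 3.81, 0.799, 1.11 and 3.53 FPKM in FNP replicates 1 to 6, with the higher values in replicates 2, 3 and 6, as in MNP and MXP. Dlk1, a non-canonical ligand, had the lower values in those FNP replicates, at 50.1, 19.6, 16.1, 70.9, 48.1 and 22.0 FPKM in replicates 1 to 6. No test was run on this pattern, which was noticed in the values.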
